A study of Homo sapiens with 12 samples.

Results

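The 10 genes described here encode enzymes that build chondroitin sulfate: XYLT1, CSGALNACT1, CSGALNACT2, CHSY1, CHSY3, CHPF, CHPF2, CHST3, CHST11 and CHST15. They were chosen by gene symbol for their role in the pathway, and each matched 1 of the 26485 genes in the tables. RNA was sequenced from spheroids of 3 lines made from the established human prostate cancer line DU145, with 4 biological replicates of each line and 12 samples in all. All 3 lines share the Crispr/Cas9 editing of ITGA2, the gene of the α2 subunit of the collagen receptor α2β1 integrin. DU145KO cells were selected for the editing vector on GFP and then sorted for absent surface α2, and the sources used here do not name them as 1 clone. DU145KO+α2 cells are DU145KO cells with a stably transfected α2 cDNA in the pawneo2 vector, DU145KO+vector cells carry the empty vector, and both transfected lines were kept in geneticin while DU145KO was not described as selected with it. Spheroids of 8000 cells were grown without serum for 72 hours.

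Chondroitin sulfate is a long sugar chain of alternating glucuronic acid and N-acetylgalactosamine that is built in the Golgi on the serines of core proteins and then displayed at the cell surface or secreted into the matrix. A xylosyltransferase puts the first sugar on the core protein, and a short linkage region follows that heparan sulfate shares. An N-acetylgalactosaminyltransferase then commits the chain to chondroitin, chondroitin synthases and polymerizing factors lengthen it, and sulfotransferases place sulfate on it in patterns that growth factors, matrix proteins and adhesion receptors can bind.

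ITGA2, the edited gene, was at 32.5 to 41.7 RPKM in DU145KO+α2, 1.63 to 2.54 RPKM in DU145KO+vector and 1.97 to 3.2 RPKM in DU145KO. The DU145KO+α2 libraries thus followed their label. ITGA2 overlapped between DU145KO+vector and DU145KO and cannot check the labels of these lines against each other. The total count on genes was 13948734 to 19988111 per sample. The epithelial markers KRT8, KRT18, EPCAM and CDH1 were detected in every line, with a summed 686 to 963 CPM in DU145KO+α2, 923 to 1180 CPM in DU145KO+vector and 1030 to 1370 CPM in DU145KO. In DU145KO+α2 against DU145KO the log2 fold change was -1.14 for EPCAM and -1.13 for CDH1 (adjusted p = 1.86e-05 and 0.00054, edgeR's quasi-likelihood test). It was -0.42 for KRT18 (adjusted p = 0.0434) and -0.37 for KRT8 (adjusted p = 0.207, and 0.0476 with the replicate number as a block). Against DU145KO+vector the log2 fold change in DU145KO+α2 was -0.70 for CDH1 (adjusted p = 0.00981, same test). There it was -0.31 for EPCAM, -0.27 for KRT18 and -0.37 for KRT8 (adjusted p = 0.0917, 0.172 and 0.168). With the block the adjusted p-values of KRT18 and KRT8 were 0.00597 and 0.0354. EPCAM was also lower in DU145KO+vector than in DU145KO (-0.83, adjusted p = 0.00093, same test). The luminal prostate marker KLK3 had at most 3 counts in any sample, as did COL1A2, COL3A1, PTPRC and CD3E of fibroblasts and leukocytes, and the summed markers of endothelial cells stayed at 1.09 to 3.79 CPM. In bulk RNA, fewer cells with a transcript and less of it per cell cannot be told apart.

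XYLT1, 1 of the xylosyltransferases that start the chain, was not counted in any of the 12 samples, which allows up to 0.0152 CPM (counts scaled by the library total) over all samples together, or 0.150 to 0.215 CPM in a single sample (3 counts of the total, covering counting error only). XYLT2, which adds the same xylose and is not among the 10 genes, was counted 543 to 861 times in each sample. Its level was 12 ± 0.503 RPKM (counts scaled by gene length and library total; SD, n = 4) in DU145KO, 11.2 ± 0.88 RPKM in DU145KO+α2 and 11.2 ± 0.559 RPKM in DU145KO+vector. The log2 fold change of XYLT2 was -0.11 in DU145KO+α2 compared to DU145KO (standard error 0.07, adjusted p = 0.432 in the quasi-likelihood test of edgeR), and its 95% interval ran from -0.27 to 0.05. Of the pair of genes for the first step, XYLT2 alone was detected, at near the same level in every line. The 100 bases before the annotated starts of both genes are shown as a description, with each CG pair in capitals (RefSeq, GRCh38.p14, gene strand, chr16:17470961-17471060 on the minus strand for XYLT1 and chr17:50346026-50346125 on the plus strand for XYLT2).
XYLT1: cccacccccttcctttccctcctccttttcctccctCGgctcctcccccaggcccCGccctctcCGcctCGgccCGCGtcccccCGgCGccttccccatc
XYLT2: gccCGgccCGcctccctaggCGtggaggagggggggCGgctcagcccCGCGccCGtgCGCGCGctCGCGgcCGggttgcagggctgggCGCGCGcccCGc
The XYLT1 stretch holds 8 CG pairs, more than 61.2% of 35097 RefSeq promoter windows, and the XYLT2 stretch holds 17, more than 95.4% of them, where the median window has 5. In the 300 bases around the start (250 before it), the GC box GGGCGG or its reverse complement CCGCCC occurs 2 times for XYLT1 and 3 times for XYLT2, and 44.9% of all windows hold at least 1. The letters TATAAA on either strand occur in no window of XYLT1, XYLT2 or the 8 other chondroitin sulfate genes for which a window was given, and in 11.5% of all windows. These letters do not say which factors bind there, and their part in the difference between XYLT1 and XYLT2 was not tested.

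The other 9 genes were all detected and all passed the filter on low counts, which left 14732 genes to test. CHPF was the most abundant, with a mean of 34.1 RPKM over the 12 samples (27.1 to 40.7), at the 85.0 percentile of the genes tested. CHST15 (mean 25.7 RPKM, 21.6 to 30.3) and CHPF2 (mean 22.9 RPKM, 19.9 to 25.8) followed, and the range of CHST15 overlapped both that of CHPF and that of CHPF2. CHSY1, CHST3 and CSGALNACT2 formed a middle group with means of 13.1, 12.7 and 11.9 RPKM whose ranges overlapped and lay below those of the first 3 genes. CSGALNACT1 (mean 4.07 RPKM) and CHST11 (mean 3.44 RPKM) were lower, and CHSY3, at a mean of 0.981 RPKM and the 15.3 percentile, was the lowest detected gene. The spread over samples separated 1 gene from the rest. CSGALNACT1 ranged 8.42-fold between its lowest and its highest sample, CHSY3 ranged 3.0-fold, and the other 7 genes ranged 1.22-fold to 1.6-fold.

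**Figure D1:**
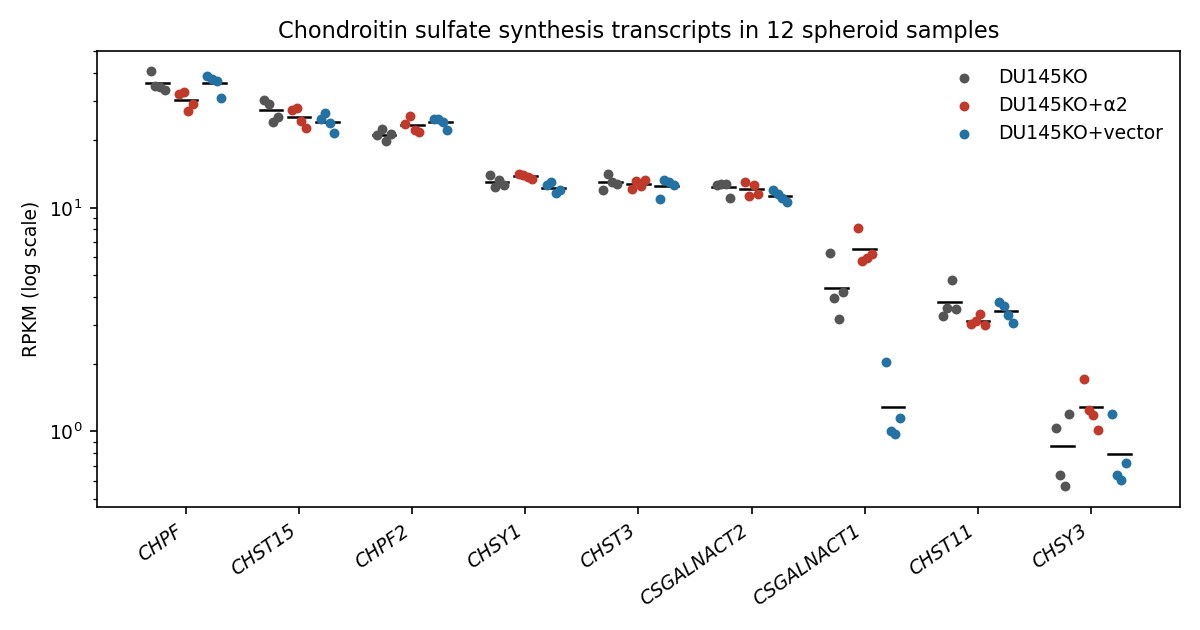
Level in RPKM (log scale) of the 9 detected chondroitin sulfate synthesis genes in each of the 12 samples, ordered by mean level, with 1 point per sample coloured by line and a bar at the mean of 4 replicates. The DU145KO+vector samples of CSGALNACT1, at 0.969 to 2.04 RPKM, lie below those of the other lines, which overlap, while the points of CSGALNACT2, CHSY1 and CHST3 lie within 1.29-fold of each other for each gene.

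The comparison of DU145KO+α2 with DU145KO+vector asks which transcripts differ between cells with and without the α2 integrin when both carry the vector. The comparison with DU145KO sets the same cells against the untransfected line, and that of DU145KO+vector with DU145KO gives the difference between both α2 negative lines. The 3 comparisons share samples pairwise and are not independent. A gene was called DE at a fold change above 2 in either direction with an adjusted p-value below 0.05 over all genes tested. Between DU145KO+α2 and DU145KO+vector, 1 of the 9 genes tested was DE, where 2.21% of all genes tested were, and the same gene alone had an adjusted p-value below 0.05, where 11.9% of all genes did (5.96% higher and 5.95% lower). Between DU145KO+α2 and DU145KO, 0 of the 9 genes were DE (2.1% of all genes) or had an adjusted p-value below 0.05 in edgeR's test (8.17% of all genes, 3.09% higher and 5.08% lower). At an unadjusted p-value below 0.05 there were 4 (CHPF and CHST11 lower, CSGALNACT1 and CHSY3 higher). The share of all genes at that threshold is not given here. CSGALNACT1, CHSY1, CHSY3 and CHPF passed it against DU145KO+vector, and CSGALNACT1 and CHPF2 between the α2 negative lines. For DU145KO+α2 and DU145KO, DESeq2 and voom with limma also called 0 after adjustment. Between DU145KO+vector and DU145KO, 1 of the 9 was DE, where 0.835% of all genes were, and had an adjusted p-value below 0.05, where 2.34% of all genes did (0.496% higher and 1.84% lower). The gene called was CSGALNACT1 in both cases, and 1 of 9 (11.1%) lies near the share of all genes in the first comparison. The median log2 fold change of the 9 genes was 0.07, -0.04 and -0.12 in the 3 comparisons, beside -0.01, 0.00 and 0.00 for all genes tested.

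Samples with the same replicate number deviated in the same direction, so each comparison was also fitted with the replicate number as a block. With the block, 4 of the 9 genes had an adjusted p-value below 0.05 between DU145KO+α2 and DU145KO+vector (CSGALNACT1, CHSY1 and CHSY3 higher, CHPF lower), where 26.5% of all genes did. Between DU145KO+α2 and DU145KO 4 of 9 did (CSGALNACT1 and CHSY3 higher, CHPF and CHST11 lower), where 22.3% of all genes did. Between DU145KO+vector and DU145KO 3 of 9 did (CHPF2 higher, CSGALNACT1 and CHST15 lower), where 13.4% of all genes did. Of these, CSGALNACT1 alone had a fold change above 2, against DU145KO+vector and between the α2 negative lines.

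**Figure D2:**
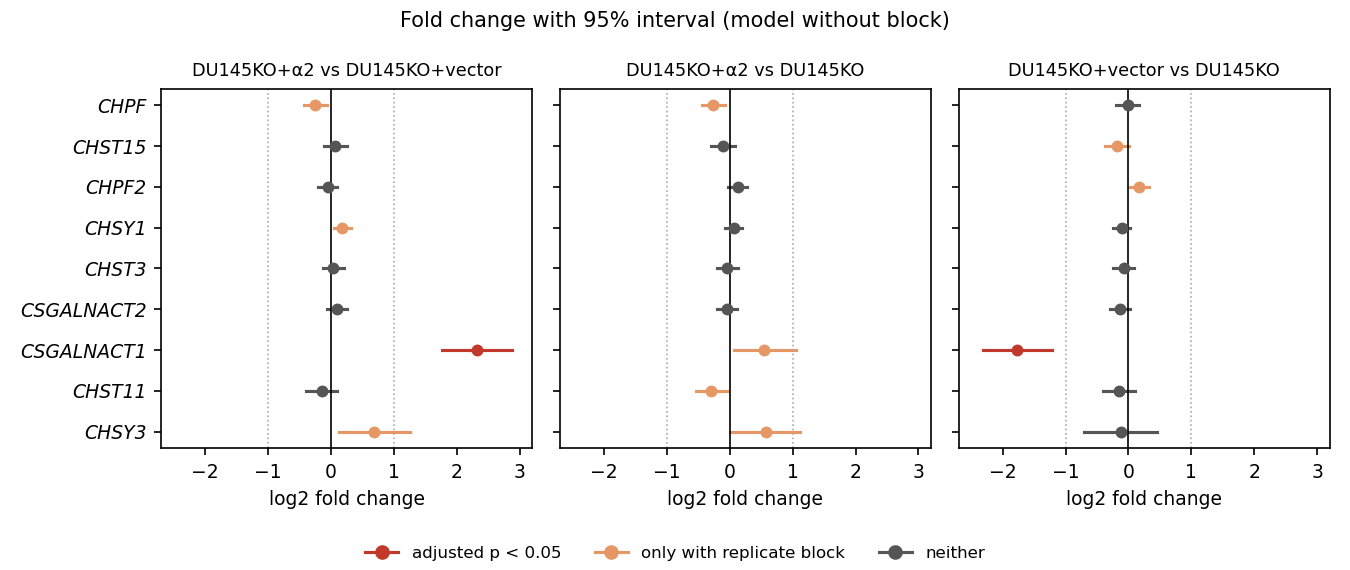
Log2 fold change of the 9 genes in the 3 comparisons (points) with 95% intervals (bars) from edgeR without the block, ordered as by level, where dotted lines mark a fold change of 2. CSGALNACT1 lies beyond the dotted lines at 2.32 and -1.77, and the other genes lie between -0.30 and 0.69, with orange marking those that passed an adjusted p of 0.05 with the replicate block alone.

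The chain-starting step differed most between the lines. CSGALNACT1, which adds the first N-acetylgalactosamine to the linkage region and thereby starts a chondroitin chain, was at 8.16, 5.76, 5.94 and 6.20 RPKM in replicates 1 to 4 of DU145KO+α2. It was at 6.25, 3.96, 3.17 and 4.21 RPKM in DU145KO and at 2.04, 1.0, 0.969 and 1.15 RPKM in DU145KO+vector, the latter from 68 to 179 counts. Every DU145KO+vector sample lay below every sample of the other lines, whereas the DU145KO+α2 and DU145KO samples overlapped through replicate 1 of DU145KO. In each line, replicate 1 was the highest sample. The log2 fold change was 2.32 in DU145KO+α2 compared to DU145KO+vector (standard error 0.25, 95% interval 1.77 to 2.87, adjusted p = 0.000124, edgeR's quasi-likelihood test), a 4.99-fold higher level. Compared to DU145KO it was 0.55 (standard error 0.23, 95% interval 0.06 to 1.05, adjusted p = 0.18), or 0.58 (standard error 0.09, adjusted p = 5.09e-05) with the replicate block. Without replicate 1 of DU145KO the adjusted p-value was 0.0469 at a log2 fold change of 0.78, and without the first replicate of all 3 lines it was 0.00589 at 0.65. CSGALNACT1 was also lower in DU145KO+vector than in DU145KO, although both lack α2, with a log2 fold change of -1.77 (standard error 0.25, 95% interval -2.32 to -1.22, adjusted p = 0.00331). By mean level the lines stood in the order DU145KO+α2, DU145KO, DU145KO+vector, and on the log2 scale the fitted gap between the α2 negative lines was the larger of the successive gaps, a difference that was not tested.

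CSGALNACT2, which carries out the same reaction, did not follow this order. It was at 12.7, 12.8, 12.8 and 11.1 RPKM in replicates 1 to 4 of DU145KO, at 13.0, 11.3, 12.6 and 11.5 RPKM in DU145KO+α2 and at 12, 11.5, 11.1 and 10.6 RPKM in DU145KO+vector. The 3 lines overlapped. Its log2 fold change was 0.10 against DU145KO+vector (standard error 0.08, 95% interval -0.06 to 0.26, adjusted p = 0.452), -0.04 against DU145KO (95% interval -0.20 to 0.12) and -0.14 between the α2 negative lines (standard error 0.08, 95% interval -0.30 to 0.02, adjusted p = 0.399). Because CSGALNACT2 was the more abundant of the pair, the share of CSGALNACT1 in their summed RPKM was 34.8% ± 2.73 (SD, n = 4) in DU145KO+α2, 26.0% ± 5.57 in DU145KO and 10.1% ± 3.09 in DU145KO+vector. The difference in the log2 ratio of CSGALNACT1 to CSGALNACT2 was 2.28 between DU145KO+α2 and DU145KO+vector (two-sided exact permutation test, p = 0.0286, the smallest that 4 samples against 4 allow, 0.0857 after adjustment over 15 ratio tests), 0.62 between DU145KO+α2 and DU145KO (exact p = 0.0571, adjusted 0.107) and -1.66 between DU145KO+vector and DU145KO (exact p = 0.0286, adjusted 0.0857). The summed level of both genes was 18.6 ± 1.82 RPKM in DU145KO+α2, 16.7 ± 1.6 RPKM in DU145KO and 12.6 ± 1.02 RPKM in DU145KO+vector (SD, n = 4).

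**Figure D3:**
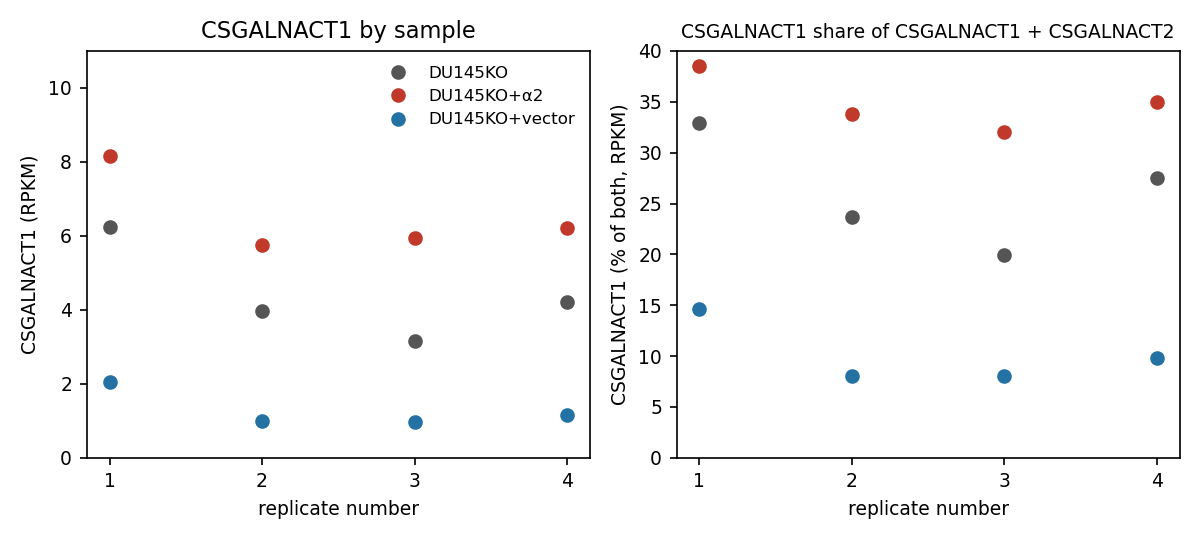
CSGALNACT1 in RPKM (left) and as a percentage of the summed RPKM of CSGALNACT1 and CSGALNACT2 (right) for each replicate number, with 1 point per sample coloured by line. At every number the order is DU145KO+α2, DU145KO, DU145KO+vector, and replicate 1 is the highest sample of each line (8.16, 6.25 and 2.04 RPKM).

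CSGALNACT1 lies on chromosome 8 (19404161 to 19757908 in GRCh38, minus strand), among genes of which most had fold changes of the same sign. Of 55 other genes tested within 5 Mb of it, 54 had a positive log2 fold change in DU145KO+α2 compared to DU145KO+vector, with a median of 0.50, and 39 were higher at an adjusted p-value below 0.05 in edgeR's test. Compared to DU145KO, 51 were positive with a median of 0.34, and 20 were higher at that threshold. Between DU145KO+vector and DU145KO, 49 were negative with a median of -0.20, and 5 were lower at that threshold. CSGALNACT1 exceeded the median of its neighbours by 1.82 in the first comparison and by 0.21 in the second, and lay 1.56 below it in the third (a difference of -1.56). Its log2 fold change was the second highest of the 56 genes (rank 2), rank 13 and the lowest of them in turn. Among the nearest genes on either side, INTS10 (a subunit of the Integrator complex) had a log2 fold change of 0.38 (adjusted p = 0.00179) against DU145KO+vector, SH2D4A 0.38 (adjusted p = 0.00252), ATP6V1B2 (a subunit of the vacuolar proton pump) 0.42 (adjusted p = 0.00292), PSD3 0.78 (adjusted p = 0.000598), NAT1 (an arylamine acetyltransferase) 1.25 (adjusted p = 0.00378) and LZTS1 1.5 (adjusted p = 0.0134), all higher in DU145KO+α2. Between the α2 negative lines SH2D4A alone of these 6 passed the test (log2 fold change -0.45, adjusted p = 0.00362), and the values of the others ran from -0.63 to -0.14. The part of this regional shift in the CSGALNACT1 values was not tested. The regional medians of the other 8 genes stayed between -0.18 and 0.12.

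**Figure D4:**
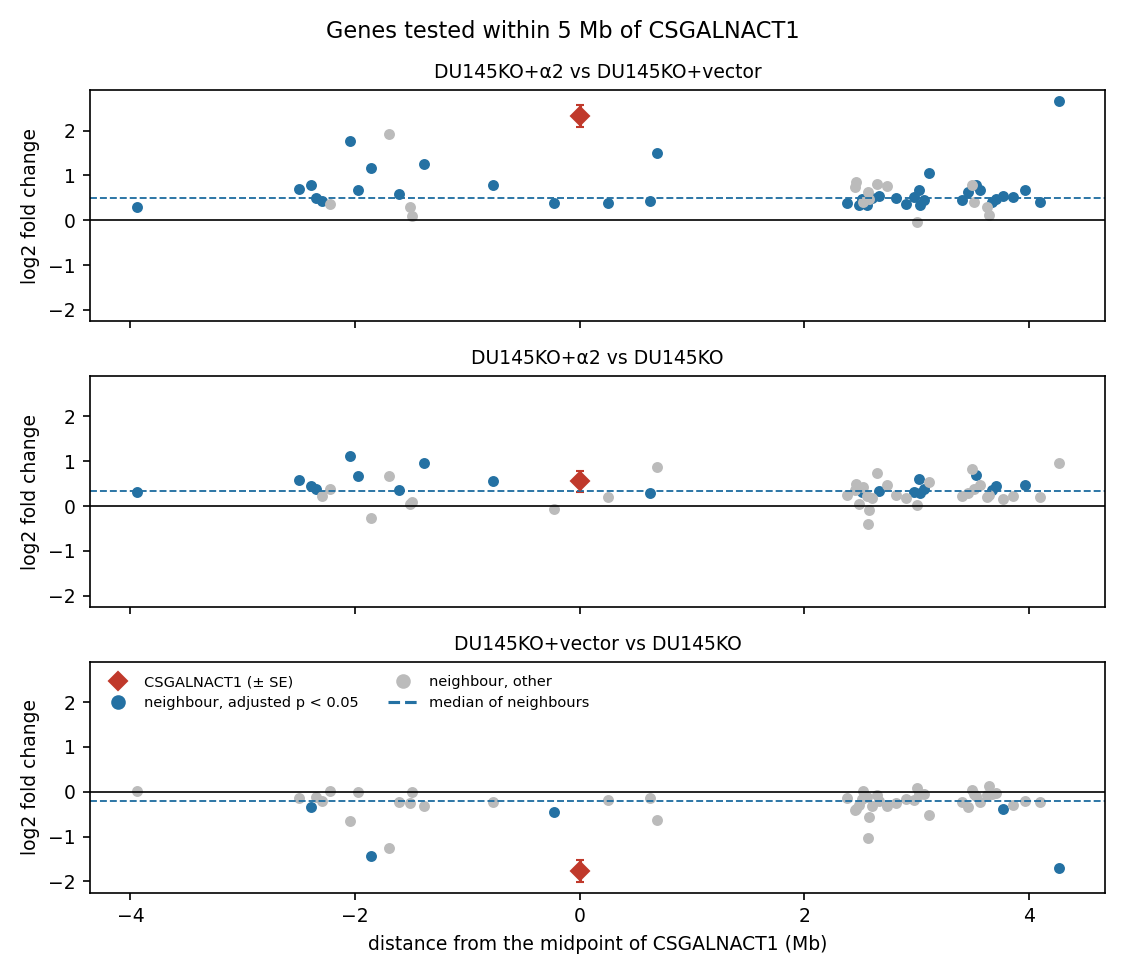
Log2 fold change of each gene tested within 5 Mb of CSGALNACT1 against its distance from the midpoint of CSGALNACT1 (in Mb) in the 3 comparisons, with CSGALNACT1 as a diamond with its standard error and the median of the neighbours as a dashed line. The neighbours are centred at 0.50, 0.34 and -0.20, and CSGALNACT1 stands at 2.32, 0.55 and -1.77.

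The genes whose log2 CPM followed CSGALNACT1 most closely over the 12 samples, among 12787 genes with a mean log2 CPM of at least 1, were SLFN13 (Pearson's r = 0.974), HMGB3 (r = 0.968) and PGM5 (r = 0.966). HMGB3, a chromatin protein of the high mobility group, was at 197 ± 18.7 RPKM in DU145KO+α2, 148 ± 25.6 RPKM in DU145KO and 91.7 ± 17.9 RPKM in DU145KO+vector (SD, n = 4). SLFN13 was at 4.77, 4.55 and 2.36 RPKM and PGM5 at 6.49, 5.16 and 2.86 RPKM in the same order. The 12 points share 3 lines and 4 replicate numbers, so these coefficients describe the samples and were not tested.

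The elongating enzymes differed between the lines by less than a fold change of 2. CHSY1, a chondroitin synthase that adds both sugars of the repeat, was at 14.2, 14, 13.8 and 13.5 RPKM in replicates 1 to 4 of DU145KO+α2, at 12.6, 13.0, 11.6 and 12 RPKM in DU145KO+vector and at 14, 12.4, 13.3 and 12.7 RPKM in DU145KO. Every DU145KO+α2 sample was above every DU145KO+vector sample, while both overlapped DU145KO. Against DU145KO+vector its log2 fold change was 0.17 (standard error 0.06, 95% interval 0.04 to 0.31, adjusted p = 0.0997, and 0.0277 with the replicate block). Against DU145KO it was 0.07 (standard error 0.06, adjusted p = 0.606).

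CHSY3, a second chondroitin synthase, was counted 31 to 95 times per sample. It was at 1.71, 1.25, 1.19 and 1.01 RPKM in replicates 1 to 4 of DU145KO+α2, at 1.2, 0.638, 0.605 and 0.725 RPKM in DU145KO+vector and at 1.04, 0.639, 0.57 and 1.2 RPKM in DU145KO. Replicate 1 of DU145KO+vector and replicates 1 and 4 of DU145KO reached into the range of DU145KO+α2. The log2 fold change was 0.69 against DU145KO+vector (standard error 0.26, 95% interval 0.13 to 1.25, adjusted p = 0.108, and 0.00661 with the block) and 0.57 against DU145KO (standard error 0.26, 95% interval 0.01 to 1.12, adjusted p = 0.221, and 0.0274 with the block). Without replicate 1 of DU145KO+vector it was 0.98 against that line, with an adjusted p-value of 0.0255. CHSY3 lies on chromosome 5 (129903979 to 130186634, plus strand), where the 53 neighbours tested within 5 Mb had medians of -0.07 and -0.18 in these comparisons, opposite in sign to CHSY3. CHSY1 exceeded CHSY3 by 8.29-fold to 23.3-fold in RPKM, and the DU145KO+α2 ratio was below that of DU145KO+vector at each of the 4 replicate numbers (8.29, 11.2, 11.6 and 13.3 against 10.5, 20.3, 19.2 and 16.5). The exact permutation test of the log2 ratio, which does not use the pairing, gave p = 0.114 for these lines, or 0.19 after adjustment.

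CHPF, a polymerizing factor that works together with a chondroitin synthase, went the other way. It was at 32.2, 32.9, 27.1 and 29.0 RPKM in replicates 1 to 4 of DU145KO+α2, at 40.7, 35.2, 34.6 and 33.5 RPKM in DU145KO and at 38.8, 37.6, 36.9 and 30.9 RPKM in DU145KO+vector. All DU145KO+α2 samples were below all DU145KO samples, and replicate 4 of DU145KO+vector alone reached into the range of DU145KO+α2. The log2 fold change was -0.25 against DU145KO+vector (standard error 0.09, 95% interval -0.43 to -0.07, adjusted p = 0.07, and 0.00246 with the block) and -0.26 against DU145KO (standard error 0.09, 95% interval -0.44 to -0.08, adjusted p = 0.0758, and 0.00223 with the block). Without replicate 4 of DU145KO+vector the first of these was -0.32, with an adjusted p-value of 0.0263. Between the α2 negative lines CHPF had a log2 fold change of -0.01 (adjusted p = 0.977). Of its exon bases, 3.97% overlap TMEM198 on the opposite strand, a gene at a mean of 0.846 RPKM.

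CHPF2, a related polymerizing enzyme, was at 23.6, 25.8, 22.2 and 21.9 RPKM in replicates 1 to 4 of DU145KO+α2, at 25, 24.9, 24.3 and 22.3 RPKM in DU145KO+vector and at 21.1, 22.4, 19.9 and 21.4 RPKM in DU145KO. The highest DU145KO sample lay just above the lowest DU145KO+vector sample, and DU145KO+α2 overlapped both. Its log2 fold change was 0.17 in DU145KO+vector compared to DU145KO (standard error 0.07, 95% interval 0.03 to 0.32, adjusted p = 0.235, and 0.0312 with the block), -0.05 in DU145KO+α2 relative to DU145KO+vector (adjusted p = 0.735) and 0.13 compared to DU145KO (adjusted p = 0.322, and 0.0971 with the block). SMARCD3, a chromatin remodelling subunit on the opposite strand, covers 20.3% of the exon bases of CHPF2 at a mean of 18.7 RPKM, and whether the counting used the strand is not given in the sources used here. The log2 fold change of SMARCD3 was between 0.04 and 0.10 in the 3 comparisons. The RPKM ratio of CHPF to CHPF2 was 1.70 ± 0.173 (SD, n = 4) in DU145KO, 1.49 ± 0.0722 in DU145KO+vector and 1.30 ± 0.0604 in DU145KO+α2, and the samples of the lines did not overlap in any comparison of the ratio (exact permutation p = 0.0286 in each, 0.0857 after adjustment). The summed level of the 4 elongation genes was 68.8 ± 4.7 RPKM in DU145KO+α2, 73.2 ± 5.22 RPKM in DU145KO+vector and 71.2 ± 3.91 RPKM in DU145KO, and the samples of the 3 lines overlapped.

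The sulfotransferases also differed between the lines by less than a fold change of 2. CHST3, which sulfates N-acetylgalactosamine to give one of the common chondroitin sulfate types, was at 12.1, 13.2, 12.5 and 13.3 RPKM in replicates 1 to 4 of DU145KO+α2, at 11, 13.3, 13.1 and 12.6 RPKM in DU145KO+vector and at 12, 14.2, 13.0 and 12.8 RPKM in DU145KO. The lines overlapped, and its log2 fold changes were 0.03 (95% interval -0.13 to 0.20), -0.04 (-0.21 to 0.13) and -0.07 (-0.24 to 0.09) in the order DU145KO+α2 compared to DU145KO+vector, DU145KO+α2 compared to DU145KO and DU145KO+vector compared to DU145KO.

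CHST11, which sulfates the same sugar at another position, was at 3.01, 3.11, 3.35 and 2.98 RPKM in replicates 1 to 4 of DU145KO+α2, at 3.79, 3.63, 3.30 and 3.04 RPKM in DU145KO+vector and at 3.27, 3.57, 4.76 and 3.54 RPKM in DU145KO. The DU145KO+α2 samples lay at the low end and overlapped both other lines. Its log2 fold change against DU145KO was -0.30 (standard error 0.12, 95% interval -0.54 to -0.05, adjusted p = 0.141, and 0.0291 with the block at -0.29), and against DU145KO+vector it was -0.15 (adjusted p = 0.49).

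CHST15, which adds a further sulfate to an already sulfated N-acetylgalactosamine, was the most abundant sulfotransferase of the set. It was at 27.3, 27.8, 24.5 and 22.7 RPKM in replicates 1 to 4 of DU145KO+α2, at 25, 26.6, 24.0 and 21.6 RPKM in DU145KO+vector and at 30.3, 29.2, 24.2 and 25.5 RPKM in DU145KO. The lines overlapped, and in each of them replicates 1 and 2 lay above replicates 3 and 4. The log2 fold change was -0.18 in DU145KO+vector compared to DU145KO (standard error 0.09, 95% interval -0.37 to 0.01, adjusted p = 0.359, and 0.023 with the block), 0.07 in DU145KO+α2 relative to DU145KO+vector (adjusted p = 0.689) and -0.11 compared to DU145KO (adjusted p = 0.539, and 0.135 with the block). The summed level of the 3 sulfotransferases was 41.5 ± 2.26 RPKM in DU145KO+α2, 40.2 ± 2.58 RPKM in DU145KO+vector and 44.1 ± 2.56 RPKM in DU145KO (SD, n = 4). The log2 ratios of CHST11 to CHST3 and of CHST15 to CHST11 had exact permutation p-values of 0.0571 to 0.914, and 0.107 or more after adjustment.

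The other genes around chondroitin sulfate were taken from 6 lists with 94 genes, of which 67 were tested. Between DU145KO+α2 and DU145KO+vector 6 were higher and 7 lower at an adjusted p-value below 0.05 (19.4%, beside 11.9% of all genes). With the block 15 were higher and 12 lower (40.3%, beside 26.5% of all genes). Between DU145KO+α2 and DU145KO 4 were higher and 5 lower (13.4%, beside 8.17%), and with the block 10 and 11 (31.3%, beside 22.3%). Between the α2 negative lines 2 passed, both lower (2.99%, beside 2.34%), and with the block 5 were higher and 9 lower (20.9%, beside 13.4%). The medians were -0.03, -0.08 and -0.04 in the 3 comparisons.

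The 6 linkage region genes had log2 fold changes of -0.15 to 0.24 in DU145KO+α2 relative to DU145KO+vector, and 0 of them passed the adjusted threshold in edgeR's test in any comparison. At an unadjusted p-value below 0.05, where the share of all genes is not given here, 1 of them passed against DU145KO+vector. It was B3GALT6, which adds the third sugar of the linkage region and is named after its values were seen (log2 fold change 0.24, adjusted p = 0.0889, and 0.0221 with the block). Of 6 tested genes for other sulfation and for epimerization, DSE, which converts glucuronic to iduronic acid and so makes dermatan sulfate, was lower in both transfected lines. It was at 7.85 ± 0.582 RPKM in DU145KO+α2, 8.13 ± 0.357 RPKM in DU145KO+vector and 10.8 ± 0.246 RPKM in DU145KO (SD, n = 4), with log2 fold changes of -0.47 (adjusted p = 0.000453) and -0.42 (adjusted p = 0.00397) against DU145KO. Of 13 genes for sugar and sulfate donors, UGDH, which makes the glucuronic acid donor, was higher in DU145KO+α2 than in DU145KO+vector (315 ± 14 against 245 ± 20 RPKM, log2 fold change 0.36, adjusted p = 0.00834). Compared to DU145KO the log2 fold change of UGDH was 0.17 (adjusted p = 0.236, and 0.0376 with the block). In DU145KO+vector compared to DU145KO it was -0.19 (adjusted p = 0.284, and 0.0369 with the block). UAP1, which makes the N-acetylhexosamine donor, was also higher in DU145KO+α2 than in DU145KO+vector (50.8 ± 7.07 against 39.1 ± 4.3 RPKM, log2 fold change 0.37, adjusted p = 0.0183), and compared to DU145KO its log2 fold change was 0.35 (adjusted p = 0.0321).

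Of 14 tested breakdown genes, 1 was higher and 3 were lower in DU145KO+α2 cells than in DU145KO+vector (28.6%, beside 11.9% of all genes). GUSB, the lysosomal glucuronidase, was lower at 45.5 ± 2.7 RPKM against 62.2 ± 6.85 RPKM (SD, n = 4; log2 fold change -0.45, adjusted p = 0.00132, against DU145KO+vector). CEMIP, known for hyaluronan breakdown, was the one that was higher, and it was DE (39.8 ± 6.99 against 7.22 ± 4.02 RPKM, log2 fold change 2.46, standard error 0.38, adjusted p = 0.00224). In DU145KO it was at 17.9 ± 7.18 RPKM, with log2 fold changes of 1.14 for DU145KO+α2 (adjusted p = 0.0891, and 0.0179 with the block) and -1.31 for DU145KO+vector (adjusted p = 0.112, and 0.0237 with the block) against it. GALNS, a lysosomal sulfatase, was higher in DU145KO+α2 than in DU145KO (log2 fold change 0.47, adjusted p = 0.00153). Against DU145KO+vector its log2 fold change was 0.22 (adjusted p = 0.0828, and 0.0145 with the block). In DU145KO+vector against DU145KO it was 0.25 (adjusted p = 0.136, and 0.0179 with the block).

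Of 18 tested core proteins that can carry chondroitin sulfate, 2 were higher and 2 lower in DU145KO+α2 cells than in DU145KO+vector. This was 22.2% of them, beside 11.9% of all genes. NRP1, a receptor for semaphorins and vascular growth factors, was higher (92.7 ± 9.1 against 67.2 ± 4.31 RPKM, log2 fold change 0.46, adjusted p = 0.00152). COL9A2, a chain of collagen IX, was DE (log2 fold change 1.22, standard error 0.31, adjusted p = 0.018) at 8 to 56 counts per sample. Against DU145KO the log2 fold change was 0.43 for NRP1 (adjusted p = 0.0033) and 0.78 for COL9A2 (adjusted p = 0.136, and 0.0177 with the block). CD74, the invariant chain of class II antigen presentation, was lower in DU145KO+α2 (18 ± 4.72 RPKM) than in DU145KO (47.5 ± 7.74 RPKM, log2 fold change -1.41, adjusted p = 0.000159), and lower in DU145KO+vector (26.8 ± 3.53 RPKM) than in DU145KO (log2 fold change -0.84, adjusted p = 0.0146). Of 10 tested heparan sulfate genes, EXTL3, which adds the first N-acetylglucosamine that commits a chain to heparan sulfate, was higher in DU145KO+α2 than in DU145KO+vector (12.6 ± 0.681 against 9.08 ± 0.453 RPKM, log2 fold change 0.47, adjusted p = 0.000266). EXTL3 lies on chromosome 8 like CSGALNACT1, but 9.1 Mb from it and so outside the 5 Mb window described above. EXT2, a subunit of the heparan sulfate polymerase, was lower (27.5 ± 1.28 against 33.9 ± 2.0 RPKM, log2 fold change -0.30, adjusted p = 0.00989).

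**Figure D5:**
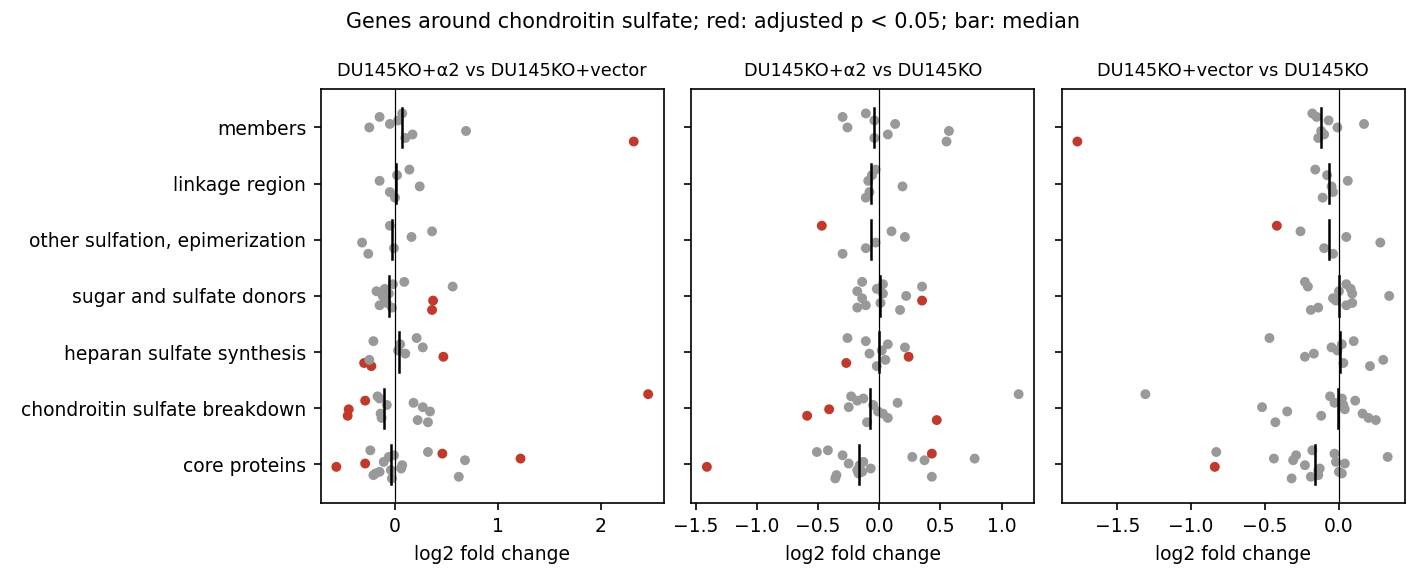
Log2 fold change of each tested gene (1 point per gene) of the 9 enzymes and of the 6 lists around chondroitin sulfate in the 3 comparisons, with red for an adjusted p-value below 0.05 and a bar at the median of each list. The list medians lie between -0.17 and 0.07, and 13, 9 and 2 of the 67 other genes tested are red.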

How the data were processed

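RNA from 72 hour spheroids of the 3 lines (4 samples each) had been sequenced as stranded single-end mRNA libraries. The authors aligned the reads to hg38 with TopHat2 2.1.0 and counted uniquely aligned reads per gene with Subread 1.5.0, and the submitters' processing notes also name bcl2fastq 1.8.4. The deposited counts are not normalized, and the authors also deposited RPKM values, made after TMM normalization. Whether counting used the strand is not given in the sources used here. Lines and replicate numbers come from the sample labels.

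Counts were tested with edgeR 4.0.16 in R 4.3.3 (TMM, filterByExpr with a minimum count of 10, robust quasi-likelihood F-test, all 12 samples in one model, two-sided), with Benjamini-Hochberg adjustment over 14732 of 26485 genes. The study used voom and limma with a fold change above 2, and voom with limma 3.58.1 and DESeq2 1.42.0 were alternatives here. The scripts were tested on simulated counts. Total counts were 13948734 to 19988111 per sample. Replicates of a line differed by 7.41 to 25.5 in chi-square per degree of freedom, and none was counted as a duplicate. P-values measure the spread between these 4 biological replicates of each line. Same-numbered samples deviated from their group means together, with correlations of 0.135 to 0.458 (DU145KO+α2 and DU145KO), 0.283 to 0.485 (DU145KO+α2 and DU145KO+vector) and 0.195 to 0.554 (DU145KO+vector and DU145KO) in 4 of 4 pairs each, so the block results stand beside calls that they change.

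Single ratios (log2 of counts, pseudocount 0.5) were compared with exact permutation tests, 15 in all, and the ratio of XYLT1 to XYLT2 was left out because XYLT1 had no count. Gene positions come from RefSeq, and strands and exon overlaps from GENCODE, both in GRCh38. Promoter windows come from RefSeq, which gave 9 of the 10 genes, CSGALNACT1 not among them. The 10 genes, the lists and the tests were chosen with earlier results of these data known. Named besides the 10 genes were ITGA2, XYLT2, in each other list the DE genes and the 2 genes per comparison with the smallest adjusted p-value below 0.05, the 3 most correlated and 3 nearest genes on each side of a DE member, cell type markers and overlapping genes. Other alternatives were DESeq2's size factors, library size alone, no filter, at least 10 counts in every sample, the compared lines only, fold change alone, a pseudocount of 5, the regional median subtracted, and each sample left out. The removal of the first replicates was added after seeing the data. A few of the named genes are not reported here.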

Additional observations from a re-analysis of the deposited data

Results flagged for a closer look

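The 4 replicates of each line were examined for a sample far from the others, over 45 groups of 4 (the 9 tested enzymes, ITGA2 and 5 ratios in 3 lines), by the gap to the nearest sample over the whole range of the group (Dixon's test at its 95% critical value). Chance flags about 1 in 20 such groups, and 2 passed. CSGALNACT1 in DU145KO+vector had a gap of 0.833 of the range, where replicate 1 was at 2.04 RPKM and the others at 0.969 to 1.15 RPKM. CSGALNACT2 in DU145KO had a gap of 0.965 of the range, where replicate 4 was at 11.1 RPKM and the others at 12.7 to 12.8 RPKM.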

How the results depend on the processing

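CSGALNACT1 was the one enzyme called DE against DU145KO+vector and between the α2 negative lines, and no enzyme was DE against DU145KO, under every alternative run with a test. Over 21 alternatives its log2 fold change ran from 2.20 to 2.65, from 0.43 to 0.78 and from -2.09 to -1.55 in the 3 comparisons (DU145KO+α2 against DU145KO+vector, against DU145KO, and DU145KO+vector against DU145KO), with the highest adjusted p-values at 0.000781, 0.369 and 0.0178. With the regional median subtracted, which gives no p-value, the values were 1.82, 0.21 and -1.56. With the replicate block the number of enzymes with an adjusted p-value below 0.05 rose from 1, 0 and 1 to 4, 4 and 3, and of other pathway genes from 13, 9 and 2 to 27, 21 and 14. Over all genes tested the share rose as well, from 11.9%, 8.17% and 2.34% to 26.5%, 22.3% and 13.4%. With library size alone 2 enzymes passed against DU145KO+vector, CHPF being the second (-0.26, adjusted p = 0.0458). The DESeq2 Wald test gave 5 other pathway genes between the α2 negative lines. Leaving out 1 sample at a time gave 1 to 2 enzymes and 8 to 14 other genes against DU145KO+vector, with 2 enzymes without replicate 1 (CHSY3) or 4 (CHPF) of DU145KO+vector and 8 other genes without replicate 2 or 4 of that line. It gave 0 to 1 enzymes (1 without replicate 1 of DU145KO) and 6 to 11 other genes against DU145KO, and 1 to 4 other genes between the α2 negative lines, with 4 without replicate 1 of DU145KO+α2 and 1 without replicate 3 or 4 of DU145KO+vector. Leaving out the first replicates together gave 1 enzyme against DU145KO, CSGALNACT1. The cause of these changes was not tested. Of the fold changes of the 9 enzymes under all alternatives, 575 kept their direction or came to 0.00 and kept their side of the threshold, 14 passed it newly and 5 changed sign, all with an adjusted p-value above 0.05. The 5 were CHPF between the α2 negative lines (reported value -0.01, 0.02 without the first replicates, -0.04 to 0.06 with 1 sample left out), CHSY3 between the same lines (reported value -0.12, -0.40 to 0.08) and CHST3 against DU145KO+vector (reported value 0.03, -0.02 to 0.06). Between the α2 negative lines 7 log2 ratios changed sign with 1 sample left out, within -0.18 to 0.22 for CHSY1 to CHSY3, -0.17 to 0.05 for CHST11 to CHST3 and -0.21 to 0.08 for CHST15 to CHST11. Exact tests of a ratio without 1 sample cannot go below 0.0571. CHSY3 rests on 31 to 95 counts per sample, the fewest of the 9 enzymes tested, and XYLT1 had no count and was not tested.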
